A study of Danio rerio with 116 samples.

Results

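Germline cells of presumptive female zebrafish at 45 and 50 days post-fertilisation (dpf) were compared with non-germline control cells of the same ages. Every library that the labels place at these ages with female as presumptive sex was used, which gave 12 of the 116 libraries of the series, namely replicates A to C of EGFP +ve cells and replicates A to C of EGFP -ve cells at each age. All fish, those of the control libraries included, carried vas:eGFP, in which the promoter of the germline gene vasa drives a green fluorescent protein. No other treatment is named, and each library came from 1 fish. Cells were dissociated, passed through a strainer and sorted by fluorescence, and low coverage whole genome bisulfite sequencing recorded the methylation of each CG that a read covered (a CG call).

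Several features limit these groups as a model. The sex was presumed from the brightness of the fluorescence, and the strainer let through only germline stem cells, oogonia and small early oocytes. The source label of the control cells names whole embryos, whereas the study's methods state that the gonadal region was dissected from fish of this age. Methylation calls hold no expression of marker genes, so the sorted cells could not be checked against germline markers. The labels do not say whether an EGFP +ve and a control library with the same letter came from the same fish, so the p-values measure the spread between these libraries.

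Ribosomal DNA encodes the RNA of the ribosome and lies in arrays of repeated units. Oocytes of several animals, frogs and zebrafish among them, are known to multiply part of their ribosomal DNA and to form many nucleoli while they store ribosomes for the embryo. Zebrafish have an oocyte type of the 45S unit, called fem-rDNA, near the end of chromosome 4, apart from the type used in somatic cells. CG methylation of ribosomal DNA is in general a mark of silent copies, and most CG sites elsewhere in the zebrafish genome are methylated in both somatic and germline cells.

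The 12 libraries held between 2643 and 15918 reads with at least 1 CG call and between 10698 and 52177 calls. Replicate B of the EGFP +ve cells at 45 dpf had the 10698 calls, of which 2976 lay in the fem-rDNA region described below. The calls left for its global methylation were thus fewer than the minimum depth that the paper states. The EGFP +ve libraries of 45 dpf were among the shallowest, with 2643 to 5204 reads, and those of 50 dpf had 10682 to 15336. Shares are given as per cent of the reads with a CG call, with 95% Wilson intervals, and 3 reads, the smallest number treated as detectable, made between 0.0188% and 0.114% of a library. These intervals and floors cover counting error only, since amplified reads without molecular identifiers are not independent molecules. The libraries were tested by exact permutation of the cell labels within each age, two-sided, which allows 400 arrangements and a smallest p of 0.005. At a single age, 3 libraries against 3 cannot give a p below 0.1. Leaving out both libraries of a letter at 1 age allows fewer arrangements and no p below 0.0167. Replicate C of the EGFP +ve cells at 50 dpf stood apart from the other 5 EGFP +ve libraries, with control-like values in most measures, so results are given with and without it. It was picked after these values were seen, and leaving it out favours a larger difference. Values and p-values without it are therefore descriptions only, and that test too has a smallest p of 0.005. Replicates B and C of these cells at 50 dpf came from a different sequencing run than the other 10 libraries, and no female control library of that age shared their run. Within-run values therefore rest on 3 against 3 libraries at 45 dpf and 1 against 3 at 50 dpf. They also lack replicate C of 50 dpf, so they are no separate check beside the values without it. Their 80 arrangements allow no p below 0.0125.

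Reads of the fem-rDNA region were many times more frequent in EGFP +ve than in control cells in 5 of 6 EGFP +ve libraries. The region was taken as the stretch of chromosome 4 from 76313463 to 76330850 in the coordinates of the deposited calls (GRCz10 per the labels), 17388 bp in length. At 45 dpf, fem-rDNA reads made up 3.46% of replicate A (142 of 4103 reads, interval 2.94% to 4.07%), 7.95% of replicate B (210 of 2643 reads, interval 6.97% to 9.04%) and 2.46% of replicate C (128 of 5204 reads, interval 2.07% to 2.92%). The control libraries of that age had 0.108%, 0.0295% and 0.0448%, from 9, 2 and 2 reads. All EGFP +ve libraries thus lay far above all control libraries at 45 dpf.

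At 50 dpf the EGFP +ve libraries spread widely. Replicate A had 1.02% (109 of 10682 reads, interval 0.847% to 1.23%), replicate B had 5.92% (715 of 12069 reads, interval 5.52% to 6.36%) and replicate C had 0.0196% (3 of 15336 reads, interval 0.00665% to 0.0575%). The control libraries of 50 dpf had 0.0422%, 0.140% and 0.0251%, from 2, 7 and 4 reads. Replicates A and B were above all 3 of these controls, and replicate C was below them, at the floor of 3 reads for its depth. In a sorted pool, more copies in each cell and a larger part of cells that carry many copies cannot be told apart.

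**Figure D1:**
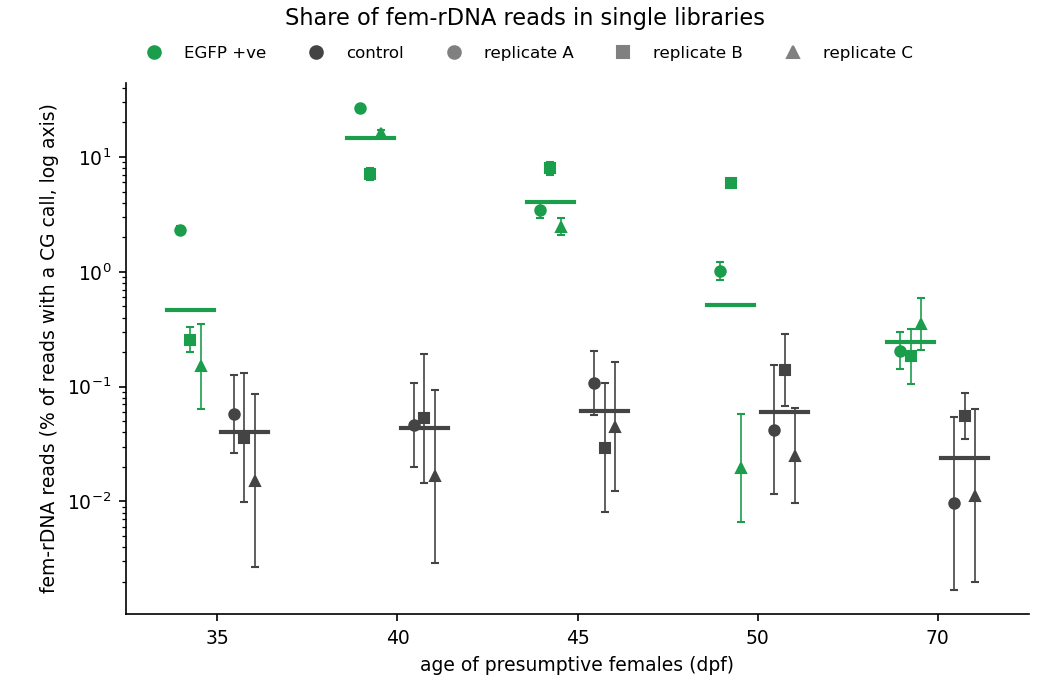
Share of fem-rDNA reads in each library of presumptive females (per cent of reads with a CG call, log axis) by age in dpf (ages evenly spaced, not to scale), for EGFP +ve (green) and control cells (grey), with 95% Wilson intervals and horizontal lines at the geometric means (0.5 reads added). The EGFP +ve means are 14.5% (40 dpf), 4.09% (45 dpf), 0.518% (50 dpf, or 2.47% without replicate C) and 0.244% (70 dpf), and replicate C of 50 dpf lies among the controls. Repeated reads are included.

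On the log2 scale with 0.5 reads added, EGFP +ve minus control cells gave 4.57 over both ages, a 23.7-fold difference (exact permutation test, p = 0.02, higher in 5 of 6 EGFP +ve libraries than in the highest control). Control replicates B and C of 45 dpf and A of 50 dpf had 2 fem-rDNA reads each, below the floor of 3 reads. The folds are therefore rough and depend on the reads added. With 1 read added in place of 0.5, the log2 difference over both ages was 4.42 (exact permutation test, p = 0.02). With 0.5 reads added, the difference was 6.05 at 45 dpf, or 66.1-fold, and 3.09 at 50 dpf, or 8.53-fold. The latter was 5.34, or 40.6-fold, with replicates A and B of the EGFP +ve cells alone. Over both ages without replicate C of the EGFP +ve cells at 50 dpf it was 5.70, or 51.8-fold (exact permutation test, p = 0.005), and within the sequencing run it was 5.06 (exact permutation test, p = 0.0125). When both libraries of a letter were left out, the difference stayed between 4.02 and 5.42, but the p rose to 0.0667 without A, B or C at 45 dpf and to 0.05 without A or B at 50 dpf (exact permutation tests). With libraries of the same letter and age taken as pairs, the p was 0.0625 (exact permutation within 6 pairs, smallest p 0.03125).

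Reads that shared all positions and states of their calls with another read were more common inside the region than outside it. Such repeats made up 7.04%, 13.3% and 6.25% of fem-rDNA reads in replicates A to C at 45 dpf, and 3.67% and 22.2% in replicates A and B at 50 dpf, against 0.0411% to 0.364% of the reads outside the region in all 12 libraries. No repeat was found among the few fem-rDNA reads of the control libraries and of replicate C at 50 dpf. Counting each pattern once changed the difference to 4.44 on the log2 scale (exact permutation test, p = 0.02).

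Mean shares of female EGFP +ve cells were highest at 40 dpf and lower at each later age. At 40 dpf the 3 libraries had 26.5%, 7.14% and 16.04%, and at 70 dpf they had 0.206%, 0.183% and 0.352%. Repeats, as defined above, made up 54.4%, 18.4% and 30.2% of the fem-rDNA reads of 40 dpf, and none were found at 70 dpf. The shares of 40 dpf include these repeats and would be lower with each pattern counted once. The libraries of 70 dpf came from a sequencing run that held no female EGFP +ve library of 40 to 50 dpf. Age and run therefore cannot be told apart in comparisons with 70 dpf. The geometric mean was 0.465% at 35 dpf, from 2.33%, 0.257% and 0.151% in replicates A to C. Replicates B and C of 35 dpf came from the run of the 70 dpf libraries, and replicate A from that of 40 dpf. Age and run are thus partly mixed between 35 and 40 dpf too. The geometric mean reached 14.5% at 40 dpf, then was 4.09% at 45 dpf, 0.518% at 50 dpf and 0.244% at 70 dpf. The value of 50 dpf rests on replicate C, without which it was 2.47% (replicates A and B).

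The correlation with age over 40 to 50 dpf is a description only, since its range was started at 40 dpf, the age known to have the highest mean, and its negative sign was favoured by that choice. Over these 9 EGFP +ve libraries the log2 share had a Pearson's r of -0.69 and a Spearman's rho of -0.79 with age, and a slope of -2.40 per 5 days. Without replicate C of 50 dpf the slope was -1.32 per 5 days and r was -0.74. With all 9 libraries and each pattern of calls counted once, the slope was -2.20 per 5 days and r was -0.68. In the 7 libraries that shared a sequencing run r was -0.89, but of 50 dpf only replicate A was among them. Replicate B, with the highest share of 50 dpf (5.92%), was left out there. With 6 libraries equally far from the median age, each of their 15 pairs was left out in turn, and r stayed between -0.89 and -0.55. The lowest of these values is that of the shared run, so the 2 are no separate checks. From 45 to 70 dpf, without the age of the maximum, r was -0.54 (exact permutation test, p = 0.126, n = 9) and rho was -0.69 (exact permutation test, p = 0.0607, n = 9), so a decline over these ages was not past the threshold. The libraries of 70 dpf were also of another run.

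Single steps between ages could not pass the threshold, because 3 libraries against 3 allow no p below 0.1. Between 40 and 45 dpf the mean log2 share was lower by 1.83 (exact permutation test, p = 0.2), and between 45 and 50 dpf by 2.98 (exact permutation test, p = 0.3). Without replicate C of 50 dpf the latter difference was -0.73. Libraries of neighbouring ages overlapped in both steps, since replicate B of 45 dpf was above replicate B of 40 dpf, and replicate B of 50 dpf was above replicates A and C of 45 dpf. Libraries of 40 and 50 dpf did not overlap, with a difference of -4.81 (exact permutation test, p = 0.1) that was -2.56 without replicate C. Those of 45 and 70 dpf, which came from different sequencing runs, did not overlap either, with a difference of -4.06 (exact permutation test, p = 0.1). The adjusted p over the 6 pairs of ages compared was 0.2 or more (Benjamini-Hochberg, exact permutation tests).

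Almost all fem-rDNA reads of the EGFP +ve cells were unmethylated where the share was high. At 45 dpf, 1.04%, 3.76% and 0.640% of the fem-rDNA calls were methylated in replicates A to C, from 1831, 2976 and 1719 calls. At 50 dpf, replicates A and B had 3.39% of 1414 calls and 0.283% of 9183 calls, whereas replicate C had 77.4% of 31 calls. The control libraries had 78.5%, 88.2% and 58.6% at 45 dpf and 52.9%, 87.5% and 85.4% at 50 dpf, from 29 to 130 calls each. Replicate C of 50 dpf lay within the range of the controls, and the other 5 EGFP +ve libraries were below all of them.

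EGFP +ve minus control cells gave -60.8 percentage points (exact permutation test, p = 0.01, lower in 5 of 6 EGFP +ve libraries than in the lowest control). It was -73.3 points at 45 dpf and -48.3 points at 50 dpf. The latter was -73.4 points with replicates A and B of the EGFP +ve cells alone. Over both ages the difference was -73.4 points without replicate C of 50 dpf (exact permutation test, p = 0.005) and -72.6 points within the run (exact permutation test, p = 0.0125).

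Taken read by read, 132 of 142, 182 of 210 and 120 of 128 fem-rDNA reads had no methylated call in replicates A to C at 45 dpf, and 100 of 109 and 689 of 715 in replicates A and B at 50 dpf. Only 1, 5, 0, 4 and 0 reads of these 5 libraries had more methylated than unmethylated calls. All 3 reads of replicate C at 50 dpf, and 22 of the 26 reads of the 6 control libraries, were of this methylated kind. Methylated fem-rDNA reads as a share of the reads outside the region differed by -0.89 on the log2 scale, EGFP +ve minus control (exact permutation test, p = 0.355). Such methylated reads held 9 of 19, 62 of 112 and 0 of 11 methylated calls in replicates A to C at 45 dpf, and 43 of 48 and 0 of 26 in replicates A and B at 50 dpf.

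In the pooled EGFP +ve libraries of each age, the low methylation ran along the whole covered part of the region. Calls of these 12 libraries lay between 834 and 12662 bp from its start, and none lay from 76314562 to 76319999 on chromosome 4, a gap of 5438 bp. Methylation was computed in 500-bp bins that held 10 calls or more. In the pooled EGFP +ve libraries it ranged from 0% to 9.76% at 45 dpf (14 bins, median 1.52%) and from 0% to 2.27% at 50 dpf (15 bins, median 0.243%). At 50 dpf replicate B gave 9183 of the 10628 calls and replicate C gave 31, so these bins mostly describe replicate B. In the pooled control libraries it ranged from 48.1% to 100% (9 bins, median 80.6%). The lowest pooled control bin was thus more methylated than the highest pooled EGFP +ve bin, although replicate C of 50 dpf alone had 77.4% methylated calls.

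EGFP +ve reads covered 1220 CG positions of the region, of which 209 had a methylated call. Control reads covered 332 positions, and 329 of these were covered in EGFP +ve cells too, which is 99.1% of the control positions and 27.0% of the EGFP +ve positions. The densest bin held 12.9% of the calls at 45 dpf and 12.2% at 50 dpf, so the calls did not come from a single short stretch. In the controls, 24.2% of the 347 calls lay in 1 bin.

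**Figure D2:**
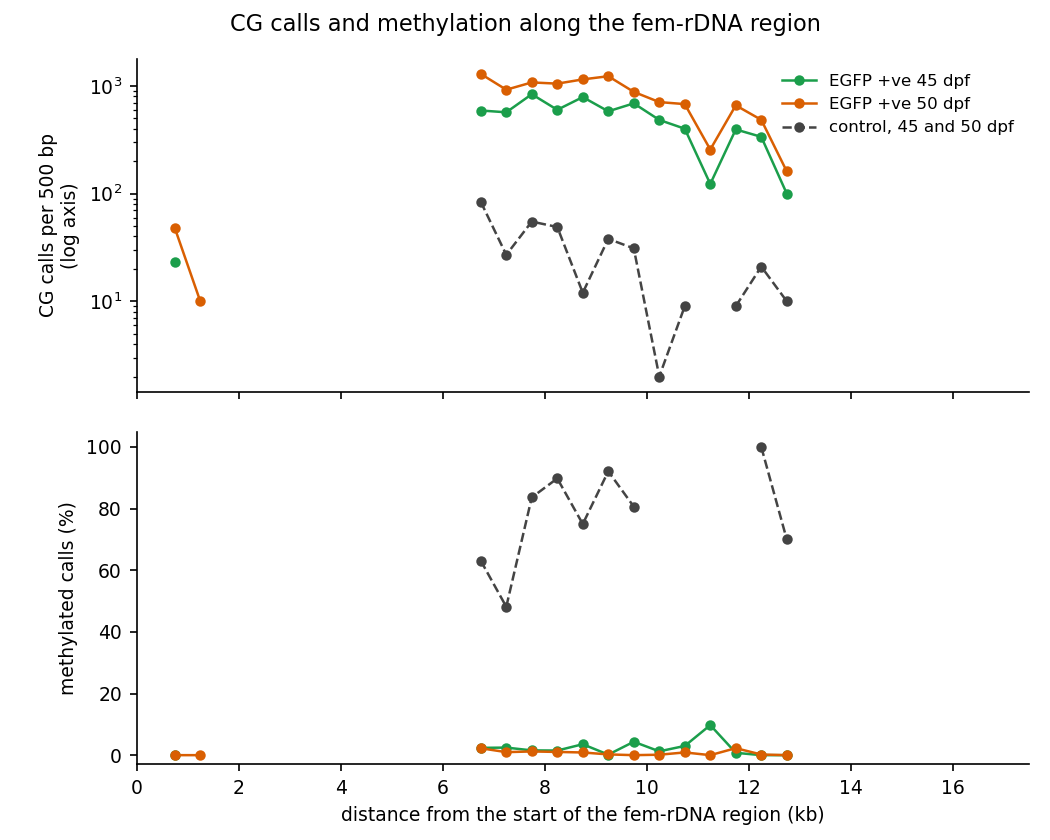
CG calls (upper panel, log axis) and per cent of methylated calls (lower panel) in bins of 500 bp along the fem-rDNA region, by distance in kb from its start, for the pooled EGFP +ve libraries of 45 dpf (green) and 50 dpf (orange) and the pooled control libraries of both ages (grey, dashed), with methylation drawn for bins of at least 10 calls. EGFP +ve bins stay at or below 9.76% while control bins are at 48.1% or more, and replicate B gave 9183 of the 10628 EGFP +ve calls of 50 dpf.

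The reads around the region did not show the same excess. In the rest of the last 1 Mb window with calls on chromosome 4 (from 76000001, with the highest call at 76624474), EGFP +ve libraries had 0 to 8 reads and control libraries 1 to 8 reads. EGFP +ve minus control cells gave -0.47 on the log2 scale of the share (exact permutation test, p = 0.495).

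Outside the fem-rDNA region, EGFP +ve cells were more methylated than control cells over both ages together, without overlap at 45 dpf and with overlap at 50 dpf. Global methylation, the mean over windows of 10 Mb on chromosomes 1 to 25 with the region left out, was 82.1%, 81.6% and 83.7% in the EGFP +ve libraries of 45 dpf and 75.5%, 78.3% and 74.5% in their controls. At 50 dpf it was 79.0%, 79.0% and 75.3% in EGFP +ve cells and 74.6%, 75.6% and 77.9% in control cells. At 50 dpf replicate C of the EGFP +ve cells lay below 2 of the 3 controls.

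Group values were 82.5% ± 1.12 (SD, n = 3) against 76.1% ± 1.95 (SD, n = 3) at 45 dpf and 77.8% ± 2.13 (SD, n = 3) against 76.0% ± 1.70 (SD, n = 3) at 50 dpf. The difference over both ages was 4.08 percentage points (exact permutation test, p = 0.015, 5 of 6 EGFP +ve libraries above the highest control), with 6.38 points at 45 dpf. The 50 dpf libraries alone differed by 1.77 points (exact test, p = 0.3), or by 3.00 points without replicate C. Over both ages without this library the value was 4.69 points (exact permutation test, p = 0.01), and within the run it was 4.68 points (exact permutation test, p = 0.0125). With both libraries of a letter left out, it stayed between 3.37 and 5.16 points, with a p of up to 0.0667 (exact permutation tests), and it was past the threshold only without replicate C of 50 dpf.

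In EGFP +ve females, the 3 libraries of 50 dpf were all below the 3 of 45 dpf, by 4.68 points (exact permutation test, p = 0.1, adjusted p = 0.15 over 3 pairs of ages). Without replicate C of 50 dpf the difference was -3.46 points. Control cells had nearly the same mean at both ages. At 40 dpf the EGFP +ve libraries had 81.5%, 76.2% and 81.5%, and at 70 dpf 75.8%, 76.4% and 76.4%. The mean of 50 dpf thus lay between those of 45 and 70 dpf, with replicate C below all 3 libraries of 70 dpf. Female control libraries of 70 dpf, of the same run as the EGFP +ve ones, had 81.1%, 79.6% and 78.7%. They lay above the EGFP +ve libraries of that age, the reverse of 45 dpf.

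The higher methylation was spread over the chromosomes. All 25 chromosomes had a higher mean in EGFP +ve cells over both ages, by 0.975 to 8.01 points with a median of 4.46. At 45 dpf all 25 were higher, with a median of 6.87 points, and at 50 dpf 24 were, with a median of 2.09 points. Chromosome 18, the exception, had a difference of -1.67 points at 50 dpf.

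A total of 3 chromosomes were higher at an adjusted p under 0.05, which is 12% of the 25 tested, and 10 had an unadjusted p under 0.05 (exact permutation tests with Benjamini-Hochberg adjustment). These were chromosome 10 with 5.89 points, chromosome 12 with 5.76 points and chromosome 22 with 5.94 points, each with the smallest p that the design allows, 0.005, and an adjusted p of 0.0417 (exact permutation test). Groups did not overlap on 11 of the 25 chromosomes at 45 dpf and on 3 of the 25 at 50 dpf. The 3 of 50 dpf were those named, which adds no support, since the smallest p requires groups apart at both ages. On chromosome 10, EGFP +ve libraries had 78.1%, 84.1% and 87.4% at 45 dpf and 78.0%, 79.9% and 78.4% at 50 dpf, against 75.0%, 75.6% and 73.5% and 71.7%, 77.6% and 77.1% in control libraries. The called chromosomes were not those with the largest differences, since chromosome 23 had 8.01 points and an adjusted p of 0.0625 (exact permutation test) and is named here for its size after its values were seen.

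On chromosome 12, EGFP +ve libraries had 88.6%, 84.9% and 82.8% at 45 dpf and 79.2%, 83.2% and 81.0% at 50 dpf, and control libraries had 76.5%, 80.1% and 74.7% and 76.6%, 78.3% and 78.8%. On chromosome 22 the EGFP +ve values were 81.9%, 85.9% and 81.1% at 45 dpf and 78.5%, 81.0% and 77.5% at 50 dpf, and the control values were 75.1%, 80.3% and 70.1% and 73.0%, 74.6% and 77.0%. On both chromosomes, and on chromosome 10, the gap between the groups at 50 dpf was under 1 percentage point at its narrowest. The number of calls behind a value on a chromosome went down to 174 in the shallowest library.

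Chromosome 4, which carries the fem-rDNA, was like the others once the region was left out. EGFP +ve libraries had 88.4%, 83.4% and 82.3% at 45 dpf and 78.8%, 82.2% and 78.5% at 50 dpf. Control libraries had 78.8%, 74.9% and 76.5% at 45 dpf and 75.9%, 77.8% and 80.3% at 50 dpf. The groups did not overlap at 45 dpf and overlapped at 50 dpf. The difference of 4.89 points had an adjusted p of 0.0714 (exact permutation test).

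No chromosome differed from the remaining chromosomes of the same library at an adjusted p under 0.05 (exact permutation tests, 0 of 25, with 2 at an unadjusted p under 0.05 and a smallest adjusted p of 0.312). The share of reads on a chromosome moved by -0.15 to 0.10 on the log2 scale, again with 0 of 25 called, or 0%, and 1 at an unadjusted p under 0.05 (exact permutation tests). Within single libraries, 21, 22 and 25 chromosomes of replicates A to C at 45 dpf were above the mean of the controls of that age, and 23, 23 and 10 of those at 50 dpf. Replicate C of 50 dpf thus had fewer chromosomes above than below the control mean. Without that library, 8 chromosomes were called and the median difference was 5.22 points. Leaving out both libraries of A, B or C at 45 dpf, or of A or B at 50 dpf, called 0 chromosomes, and leaving out both libraries of C at 50 dpf called 9. With the fewer arrangements left, a call needs several chromosomes at the smallest p, so these counts are in part set by the design.

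**Figure D3:**
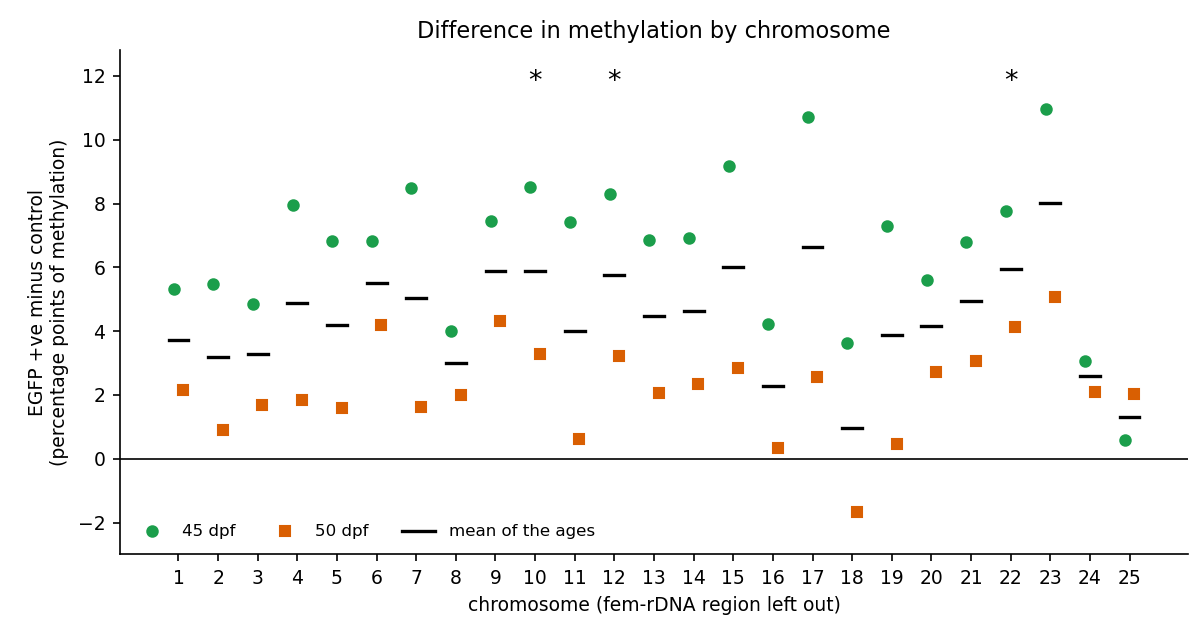
Difference in methylation between EGFP +ve and control cells (percentage points, EGFP +ve minus control, 3 libraries of each per age) for chromosomes 1 to 25 with the fem-rDNA region left out, at 45 dpf (green circles), at 50 dpf (orange squares) and as the mean of the ages (black bars). Asterisks mark chromosomes 10, 12 and 22, with an adjusted p of 0.0417, and chromosome 18 at 50 dpf is the only value below 0.

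The number of CG calls on a read was used as a simple measure of the CG density of its locus. CG-dense stretches of vertebrate genomes are known to include unmethylated promoters, while reads with few CG sites come mostly from the methylated bulk of the genome. The control libraries did not show such a split. Their mean methylation was 73.2% for reads with 1 call and 73.1% for reads with 8 or more calls. It was 76.8% for 2 to 3 calls and 77.3% for 4 to 7 calls. Reads outside the fem-rDNA region were placed in 4 classes, with 1 call, 2 to 3 calls, 4 to 7 calls and 8 or more calls. EGFP +ve cells were more methylated in the 3 classes with fewer calls, and the class with 8 or more calls did not pass the test.

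Reads with 1 call were methylated in 82.1%, 77.6% and 86.3% of cases in the EGFP +ve libraries of 45 dpf and in 77.7%, 82.7% and 74.5% in those of 50 dpf. Control libraries had 73.3%, 76.1% and 71.0% at 45 dpf and 71.0%, 72.2% and 75.7% at 50 dpf. The groups were apart at 45 dpf, and at 50 dpf replicate C was the only EGFP +ve library below a control library. This class differed by 6.95 points (exact permutation test, p = 0.01, adjusted p = 0.02 over the 4 classes).

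Reads with 2 to 3 calls differed by 5.79 points and reads with 4 to 7 calls by 4.51 points, both with an adjusted p of 0.02 (exact permutation tests). In each of these classes too, 5 of 6 EGFP +ve libraries were above the highest control, the exception being replicate C of 50 dpf. Without this library the 3 differences were 7.90, 6.67 and 5.11 points (exact permutation tests, p = 0.005 each), and within the run they were 6.65, 5.57 and 4.85 points (exact permutation tests, p = 0.0125 each). Leaving out both libraries of A, B or C at 45 dpf, or of A or B at 50 dpf, called none of the classes, and leaving out those of C at 50 dpf called all 3 of them.

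Reads with 8 or more calls had 76.2%, 79.0% and 75.5% in the EGFP +ve libraries of 45 dpf and 76.0%, 69.1% and 72.0% in those of 50 dpf. The value of replicate B at 45 dpf rests on 137 reads, the fewest of the 12 libraries. Their controls had 71.1%, 77.3% and 71.4% at 45 dpf and 71.6%, 72.0% and 75.3% at 50 dpf. The groups overlapped at both ages, and replicate B of 50 dpf, which had the second highest methylation in reads with 1 call among the EGFP +ve libraries, was the lowest of all 12 here. This class differed by 1.52 points (exact permutation test, p = 0.385), which does not show that this class was equal in both kinds of cell.

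A direct contrast of the classes was chosen after these values were seen. Methylation of reads with 1 call minus that of reads with 8 or more calls was 5.88, -1.39 and 10.8 points in the EGFP +ve libraries of 45 dpf and 1.79, 13.7 and 2.50 points in those of 50 dpf. In control libraries it was between -1.11 and 2.19 points. EGFP +ve minus control cells gave 5.43 points (exact permutation test, p = 0.05), 6.30 points without replicate C of 50 dpf (exact permutation test, p = 0.04) and 3.34 points within the run (exact permutation test, p = 0.125). The difference between the classes was therefore not past the threshold with all libraries.

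The classes took similar shares of the reads in both kinds of cell. Reads with 4 to 7 calls made up 27.9% ± 0.344 (SD, n = 6) of EGFP +ve and 28.8% ± 0.589 (SD, n = 6) of control reads, a difference of -0.87 points (exact permutation test, p = 0.015, adjusted p = 0.06). Reads with 1 call made up 27.2% ± 1.09 (SD, n = 6) and 26.03% ± 0.685 (SD, n = 6), a difference of 1.17 points (exact permutation test, p = 0.075, adjusted p = 0.15). The remaining classes differed by 0.0746 and -0.375 points with an adjusted p of 0.547 or more (exact permutation tests).

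Reads with at least 4 calls were also grouped by their own methylation, as fully methylated, mixed or unmethylated. Fully methylated reads were more common and mixed reads less common in EGFP +ve cells. Fully methylated reads made up 58.1%, 57.2% and 62.8% in the EGFP +ve libraries of 45 dpf and 52.5%, 55.5% and 47.4% in those of 50 dpf. Control libraries had 46.6%, 49.6% and 45.4% at 45 dpf and 46.3%, 47.8% and 49.5% at 50 dpf. EGFP +ve cells held 8.07 points more of them (exact permutation test, p = 0.015, adjusted p = 0.03 over 3 kinds of read, 5 of 6 EGFP +ve libraries above the highest control).

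Mixed reads made up 33.5%, 34.8% and 28.9% in EGFP +ve cells at 45 dpf and 37.9%, 32.4% and 42.6% at 50 dpf, against 40.9% to 43.5% in all 6 control libraries. Replicate C of 50 dpf was the only EGFP +ve library within the control range. EGFP +ve minus control cells gave -7.14 points (exact permutation test, p = 0.02, adjusted p = 0.03). Without replicate C of 50 dpf it was -8.39 points for mixed and 9.18 points for fully methylated reads (exact permutation tests, p = 0.005 each), and within the run it was -7.03 and 8.42 points (exact permutation tests, p = 0.0125 each). Without both libraries of any letter and age other than C at 50 dpf, neither kind of read was called.

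Unmethylated reads made up 8.41%, 7.92% and 8.38% in the EGFP +ve libraries of 45 dpf, below their controls with 9.97%, 8.98% and 11.7%. At 50 dpf the EGFP +ve libraries had 9.64%, 12.03% and 9.99% and the controls 11.5%, 10.2% and 9.68%, with a large overlap. The difference over both ages was -0.933 points (exact permutation test, p = 0.185). Mixed reads were themselves more methylated in EGFP +ve cells, with a mean of 74.0% ± 2.37 (SD, n = 6) against 71.2% ± 1.17 (SD, n = 6), a difference of 2.87 points (exact permutation test, p = 0.03). This measure was added after the shares were seen.

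**Figure D4:**
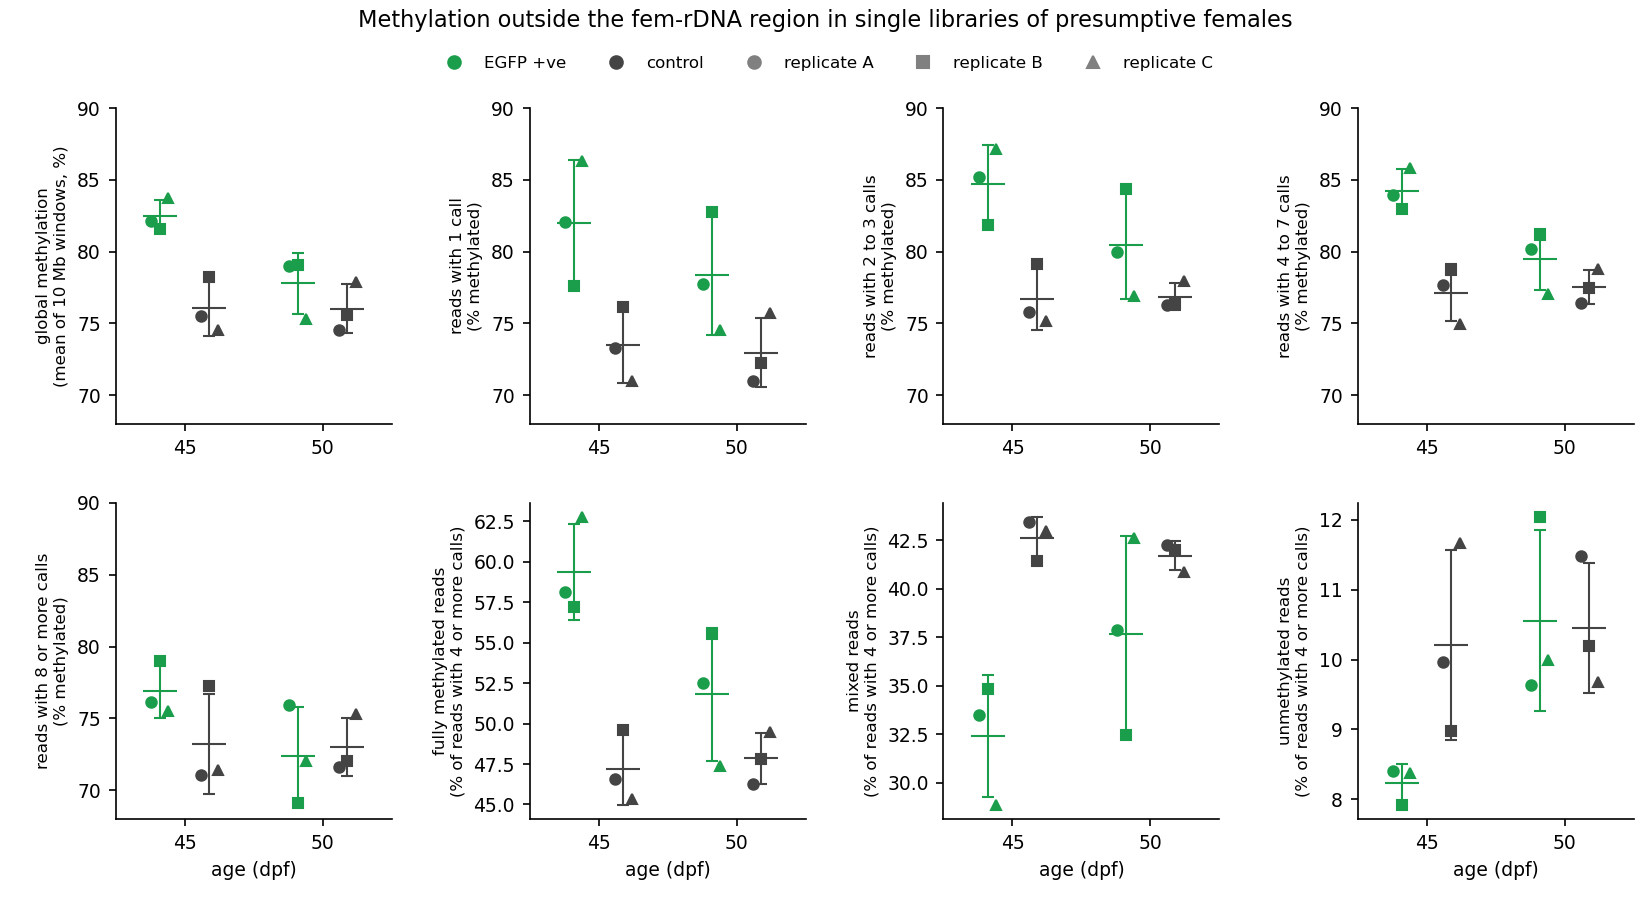
Methylation outside the fem-rDNA region in the 12 libraries at 45 and 50 dpf, for EGFP +ve (green) and control cells (grey), with the mean and SD of 3 libraries. The panels show global methylation, methylation of the 4 classes of reads by number of CG calls, and the shares of fully methylated, mixed and unmethylated reads among those with at least 4 calls (per cent, axes not from 0), and replicate C of the EGFP +ve cells at 50 dpf (triangle) lies among the controls in most panels.

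Unplaced scaffolds, which hold sequence that the assembly does not assign to a chromosome and much of which is repetitive, gave 2026 reads and 7826 calls on 596 scaffolds over the 12 libraries. Their share of the reads was 2.32%, 2.35% and 2.21% in the EGFP +ve libraries of 45 dpf and 2.22%, 2.27% and 2.35% in those of 50 dpf. Control libraries spread more widely, with 1.70%, 1.93% and 2.42% at 45 dpf and 2.22%, 1.84% and 1.92% at 50 dpf. The difference was 0.20 on the log2 scale (exact permutation test, p = 0.06), and the groups overlapped at both ages.

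Methylation of the scaffolds was 90.5%, 84.9% and 83.1% in EGFP +ve cells at 45 dpf and 81.9%, 83.3% and 76.4% at 50 dpf. The controls had 78.9%, 76.8% and 82.1% at 45 dpf and 73.0%, 83.3% and 77.2% at 50 dpf. The EGFP +ve libraries were above all controls at 45 dpf and overlapped them at 50 dpf. The groups differed by 4.77 points (exact permutation test, p = 0.07), and without replicate C of 50 dpf it was 5.80 points (exact permutation test, p = 0.04). The scaffold with the most calls held 9.49% of them over the 12 libraries together. Its part was larger in some libraries, with 88 of 464 calls in control replicate C of 45 dpf and 54 of 357 in EGFP +ve replicate A of 45 dpf. The difference was not computed without it.

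Mitochondrial reads were more frequent in EGFP +ve cells. The mitochondrial genome is present in many copies per cell, is known to rise in copy number as oocytes grow, and carries little or no CG methylation. Its share was 0.292%, 0.151% and 0.154% in the EGFP +ve libraries of 45 dpf (12, 4 and 8 reads) and 0.0723%, 0.0589% and 0.0224% in their controls (6, 4 and 1 reads). At 50 dpf it was 0.122%, 0.191% and 0.0326% in EGFP +ve cells (13, 23 and 5 reads) and 0.0211%, 0.0999% and 0.0251% in control cells (1, 5 and 4 reads). The groups were apart at 45 dpf, and at 50 dpf replicate C of the EGFP +ve cells lay below the highest control.

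The difference was 1.46 on the log2 scale with 0.5 reads added, or 2.75-fold (exact permutation test, p = 0.03). It was 1.87 at 45 dpf, or 3.65-fold, and 1.06 at 50 dpf, or 2.08-fold, with 1.76 at 50 dpf from replicates A and B alone. Over both ages without replicate C of 50 dpf it was 1.82, or 3.52-fold (exact permutation test, p = 0.01), and within the run 1.66 (exact permutation test, p = 0.0125). These shares rest on 65 reads of EGFP +ve and 21 reads of control cells in all, and leaving out both libraries of replicate B at 45 dpf or of replicate A at 50 dpf gave a p of 0.05 or 0.183 (exact permutation tests).

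Methylated mitochondrial calls were rare. In EGFP +ve cells 13 of 229 calls were methylated (5.68%, interval 3.35% to 9.47%) and in control cells 1 of 81 (1.23%, interval 0.218% to 6.67%). Of the 13 calls, 8 lay on 2 reads of replicate C at 45 dpf, and replicates A and B of 50 dpf had 0 of 47 and 0 of 62. The intervals of the pooled values overlap and treat calls of the same read as independent.

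**Figure D5:**
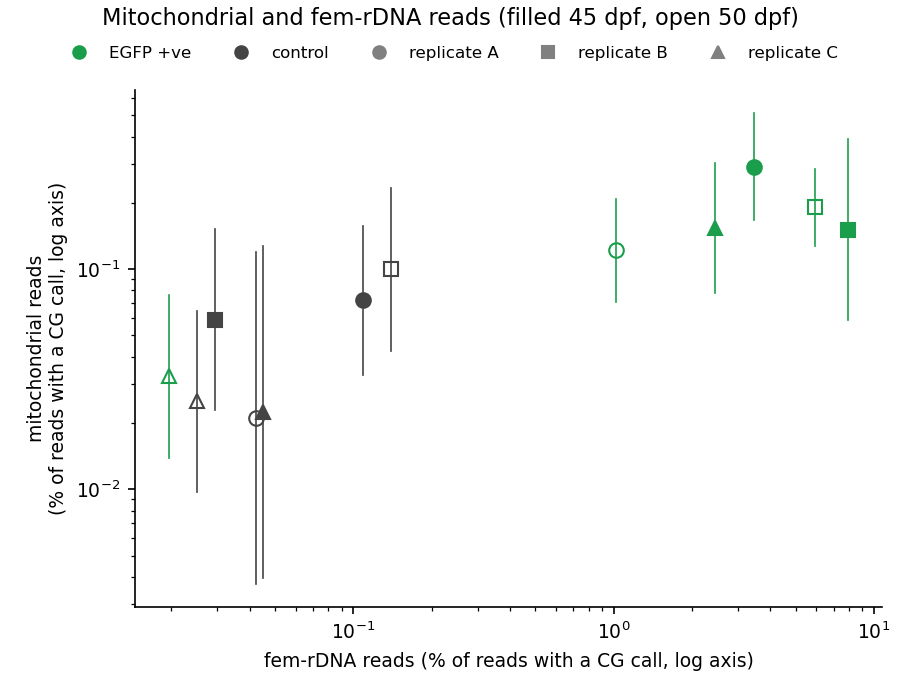
Share of mitochondrial reads against the share of fem-rDNA reads (both in per cent of reads with a CG call, log axes) in the 12 libraries, EGFP +ve in green and control in grey, filled for 45 dpf and open for 50 dpf, with 95% Wilson intervals of the mitochondrial share. The 5 EGFP +ve libraries with at least 1.02% of fem-rDNA reads have between 0.122% and 0.292% of mitochondrial reads, and replicate C of 50 dpf lies with the controls in both.

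Differences between the ages and between the sexes were tested directly. EGFP +ve minus control cells was larger at 45 than at 50 dpf by 2.95 on the log2 scale for the fem-rDNA share (exact permutation test of the age labels within each kind of cell, p = 0.315, and by 0.70 without replicate C of 50 dpf) and by 4.61 points for global methylation (exact permutation test, p = 0.115). Over the 13 measures tested in this way, the smallest adjusted p was 0.39 (exact permutation tests), so no effect was shown to differ between the ages. The same contrast in presumptive males of 45 and 50 dpf was 2.12 on the log2 scale for the fem-rDNA share (exact permutation test, p = 0.05) and 2.93 points for global methylation (exact permutation test, p = 0.11). Among male EGFP +ve libraries, replicate A of 45 dpf had 0.715% of fem-rDNA reads and replicate C of 50 dpf had 0.960%. The rest had 0.0187% to 0.0510%, so the male share effect was not general.

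Females minus males gave 2.45 for the effect on the fem-rDNA share (permutation test, p = 0.233, adjusted p = 0.466) and 1.14 points for that on global methylation (permutation test, p = 0.505). EGFP +ve cells alone had a higher fem-rDNA share in females than in males by 3.73 on the log2 scale (exact permutation test, p = 0.045). The difference of the effects was thus not past the threshold, and the p for the EGFP +ve cells alone was not adjusted. Sex was presumed from fluorescence, which the paper relates to the number of oocytes, so the grouping was not independent of the kinds of cell sorted. Replicates B and C of male EGFP +ve cells at 45 dpf and of female ones at 50 dpf also came from a different sequencing run than the rest. The higher share in females is therefore a description only.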

How the data were processed

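The authors sorted cells, prepared libraries by post-bisulfite adaptor tagging and, per the labels, trimmed the reads with Trim Galore, mapped them with Bismark 0.19.0 to GRCz10 and extracted CG calls, whereas the study's methods name a later assembly. The deposited files hold 1 line per CG call, with the read, chromosome, position and methylation state, and no normalization. This call is the unit of the deposited values (a category, neither a count nor a fraction), and every share and percentage was computed here.

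The chromosome 4 positions end at 76624474. The fem-rDNA region was therefore located as the stretch of 17388 bp with most calls in the EGFP +ve libraries of 21, 25 and 28 dpf, none of which is compared here. The comparison, the region and the read classes were chosen with earlier results of these data known. Apart from chromosomes 18 and 23, which were named after their values were seen, the regions named follow a fixed rule. It takes the fem-rDNA region, chromosome 4, up to 3 chromosomes past an adjusted p of 0.05 in order of their difference, every read class, scaffolds and the mitochondrial genome.

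Software was Python 3.11.15 with scipy 1.17.1 for tests, pandas 2.3.3 for tables, numpy 2.4.6 for arithmetic and matplotlib 3.10.9 for plots. Shares are reads with a CG call in a region over all reads with a CG call of the library (10698 to 52177 calls per library), tested as log2 with 0.5 reads added. Mapped reads without a CG call are not in the denominator, so these shares are not the paper's shares of all reads. In EGFP +ve libraries other than replicate C of 50 dpf, fem-rDNA reads held 12.8 to 14.2 calls on average. Reads outside the region on chromosomes 1 to 25 held 3.17 to 3.40 in these libraries. Methylation of fem-rDNA needed at least 10 calls. The statistic was the mean over ages of the difference of group means, tested by exact permutation within age, and with 100000 draws where arrangements could not be listed. Read classes, kinds of read and the 25 chromosomes were adjusted by Benjamini-Hochberg within each family. The test of chromosomes was tried on simulated data in which a part of the 25 chromosomes was shifted. At an adjusted p under 0.05 it called 46 of 100 chromosomes shifted by 5 points and 100 of 100 shifted by 10 points. Of 400 unshifted ones it called 1 and 8. The simulation held no deviation of single chromosomes between libraries beyond counting error, and in the data all 25 were higher. It is therefore no check of the 3 chromosomes called. Read names gave the sequencing run. Alternatives were other denominators, windows, class limits, repeats counted once, the replicate letter as a block and leaving out each letter, and, chosen after seeing the data, leaving out 1 library and the trend with age within a run. No sequence is shown, as no genome of this build was used here.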

Additional observations from a re-analysis of the deposited data

How the results depend on the processing

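Of 193 alternative values, 123 kept their direction and side of the threshold or, for counts, stayed within 1.5 times. In 39 the p no longer passed the threshold that the main value had passed, and in 6 it passed where the main value had not. Counts moved further than 1.5 times in 23, and 2 values changed sign. Leaving out a replicate gave 29 of the 39 and 17 of the 23. With the replicate letter as a block (6 pairs, smallest p 0.03125), the differences were those given. The p became 0.0625 for the fem-rDNA share (4.57 on the log2 scale) and for global methylation (4.08 points). This held by sign flips and by the exact Wilcoxon signed-rank test. The location estimates of the latter were 5.11 on the log2 scale for the share and 3.93 points for global methylation. The block called 0 of 25 chromosomes, 0 of 4 read classes and 0 of 3 kinds of read, against 3, 3 and 2 without it, and kept the calls for fem-rDNA methylation and the mitochondrial share (exact tests, p = 0.03125 each). Deviations of libraries with the same letter correlated at 0.692 for the fem-rDNA share, -0.85 for global methylation and 0.73 for the mitochondrial share. The labels do not state that a letter marks a shared fish and the sign differed between measures, so whether the letters pair the libraries is not known. The test of chromosomes called 0 of 25 with the mean over reads and against the other chromosomes of the library, and 25 with a quasi-binomial model of the calls. The scaffold share became -0.0233 as a share of calls (exact permutation test, p = 0.86) and 0.249 outside the fem-rDNA (exact permutation test, p = 0.03), and scaffold methylation was 5.58 points as a mean over reads (exact permutation test, p = 0.03) and 5.80 points without replicate C of the EGFP +ve cells at 50 dpf. With other class limits, reads of the class with most calls gave -0.643 points (exact permutation test, p = 0.815). The correlation of the share with age from 45 to 70 dpf had an r of -0.54 (exact permutation test, p = 0.126). The causes were not tested. The block and leaving out a letter allow fewer arrangements, so a call after adjustment needs more than 1 member at the smallest p. The counts of calls in these settings are thus in part set by the design.

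Leaving out both libraries of a letter gave 4.02 to 5.42 for the fem-rDNA share, -70.8 to -51.0 points for its methylation, 3.37 to 5.16 points for global methylation, 0.14 to 0.28 for the scaffold share, 3.22 to 6.23 points for scaffold methylation and 1.23 to 1.64 for the mitochondrial share. Calls ranged from 0 to 3 for read classes, 0 to 2 for kinds of read and 0 to 9 for chromosomes, and 8 chromosomes were called without replicate C of the EGFP +ve cells at 50 dpf alone. The r of the share with age over 40 to 50 dpf, left out 1 library at a time, stayed between -0.83 and -0.63. At 2643 to 15918 reads per library, shares below 0.0188% to 0.114% were not detectable, and control values of fem-rDNA and mitochondrial reads rest on 1 to 9 reads each.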
